A study of Homo sapiens with 10 samples.

Results

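The genes described here build, check and clear proteins in the endoplasmic reticulum (ER): chaperones, oxidoreductases, the sensors and transcription factors of the unfolded protein response, and the machinery of ER-associated degradation (ERAD). They came from a list of 52 gene symbols, and 31 of these had a probe set with a gene name, 1 probe set each, among 14884 such genes in all. The 31 were 7 sensors and transcription factors, 8 chaperones, 7 oxidoreductases and 9 ERAD genes. The other 21, among them HSPA5, HSP90B1, P4HB, PDIA4, SYVN1 and HERPUD1, were not analysed here.

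RNA was taken from MCF10A, a line of human mammary epithelial cells that grows without limit and does not form tumours. There were 5 samples of cells knocked out for the H2A.X gene, here called H2A.X-KO, and 5 of parental cells with wild-type H2A.X. H2A.X is a histone variant that is phosphorylated around DNA breaks. Both groups grew in DMEM/F12 medium with 5% horse serum, 20 ng/ml EGF, 10 μg/ml insulin, 500 ng/ml hydrocortisone and 100 ng/ml cholera toxin, and were harvested after 48 h. The labels do not say how the knockout was made, whether it was 1 clone or several, or whether samples of a group were separate cultures. P-values therefore reflect how far these samples differed among themselves, and that spread may be technical only.

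Signals are log2 values from Affymetrix arrays, 1 array per sample, so a difference of 1 is a 2-fold change of signal. Array medians over all probe sets lay between 4.26 and 4.35. On the second principal component H2A.X-KO replicate 1 stood apart, at 20.2 against -9.47 to -2.52 in the other H2A.X-KO arrays. The 4 measured epithelial markers KRT5, KRT14, KRT18 and EGFR were in both groups above 5.49, the median of the mean signals of all genes. KRT18 fell and the other 3 rose in H2A.X-KO cells. The mean signal of these markers was 10.44 to 10.60 in H2A.X-KO arrays and 9.66 to 9.80 in parental arrays. For 3 measured endothelial markers it was 4.03 to 4.46 and 4.07 to 4.19, for 3 fibroblast markers 4.28 to 4.55 and 3.74 to 4.06, for 2 immune cell markers 5.02 to 5.28 and 4.66 to 4.83, and for 3 plasma cell markers 5.52 to 5.68 and 5.34 to 5.40. Of the fibroblast markers DCN rose by 2.06, DPT differed by -0.38 (limma adjusted p = 0.00718) and LUM, at -0.09, did not pass. Of the immune markers CSF1R rose by 0.72 and LYZ, at 0.06, did not pass. Of the plasma cell markers SDC1 rose by 0.42, IRF4 rose by 0.17 and MZB1, at 0.08, did not pass. Only SDC1 was above 5.49, with means of 8.81 in H2A.X-KO and 8.39 in parental cells. MZB1 was at 4.44 and 4.36 and IRF4 at 3.52 and 3.35, in the same order. None of the 3 endothelial markers passed. Their part in the results below was not tested. In bulk RNA, fewer cells of a type and less RNA per cell cannot be told apart.

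Secreted and membrane proteins enter the ER unfolded. Chaperones hold them, lectins track their sugar chains, and oxidoreductases set their disulfide bonds. When unfolded protein builds up, the membrane sensors IRE1 (gene ERN1), ATF6 and PERK (gene EIF2AK3) signal to the nucleus. IRE1 splices the mRNA of XBP1, PERK slows translation, and ATF6 is cut to release a transcription factor. Proteins that fail to fold are recognised, passed through the HRD1 ubiquitin ligase complex and pulled into the cytosol by the ATPase VCP for the proteasome.

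Most of these genes had less signal in H2A.X-KO cells. Of 31 measured, 25 (80.6%) fell and 1 rose, while 5 did not pass the test (limma, Benjamini-Hochberg adjusted p under 0.05 over all 14884 genes). Among all genes 34.3% passed, 19.0% lower and 15.3% higher in H2A.X-KO cells. The 9 that fell at least 2-fold compare with 1.50% of all genes. In 24 of the 31 all H2A.X-KO arrays lay below all parental arrays, as in 16.0% of all genes. The median difference, H2A.X-KO minus parental, was -0.77 (log2), against 0.00 over all genes.

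The shift was of similar size in every array. Taken as the median over the 31 genes of the signal less the parental mean, it was -0.79, -0.73, -0.69, -0.72 and -0.84 in H2A.X-KO replicates 1 to 5. In the parental arrays it lay between -0.02 and 0.04. H2A.X-KO replicate 1, the array that stood apart, was the lowest of its group for 8 of the 31 genes and the highest for 8.

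**Figure D1:**
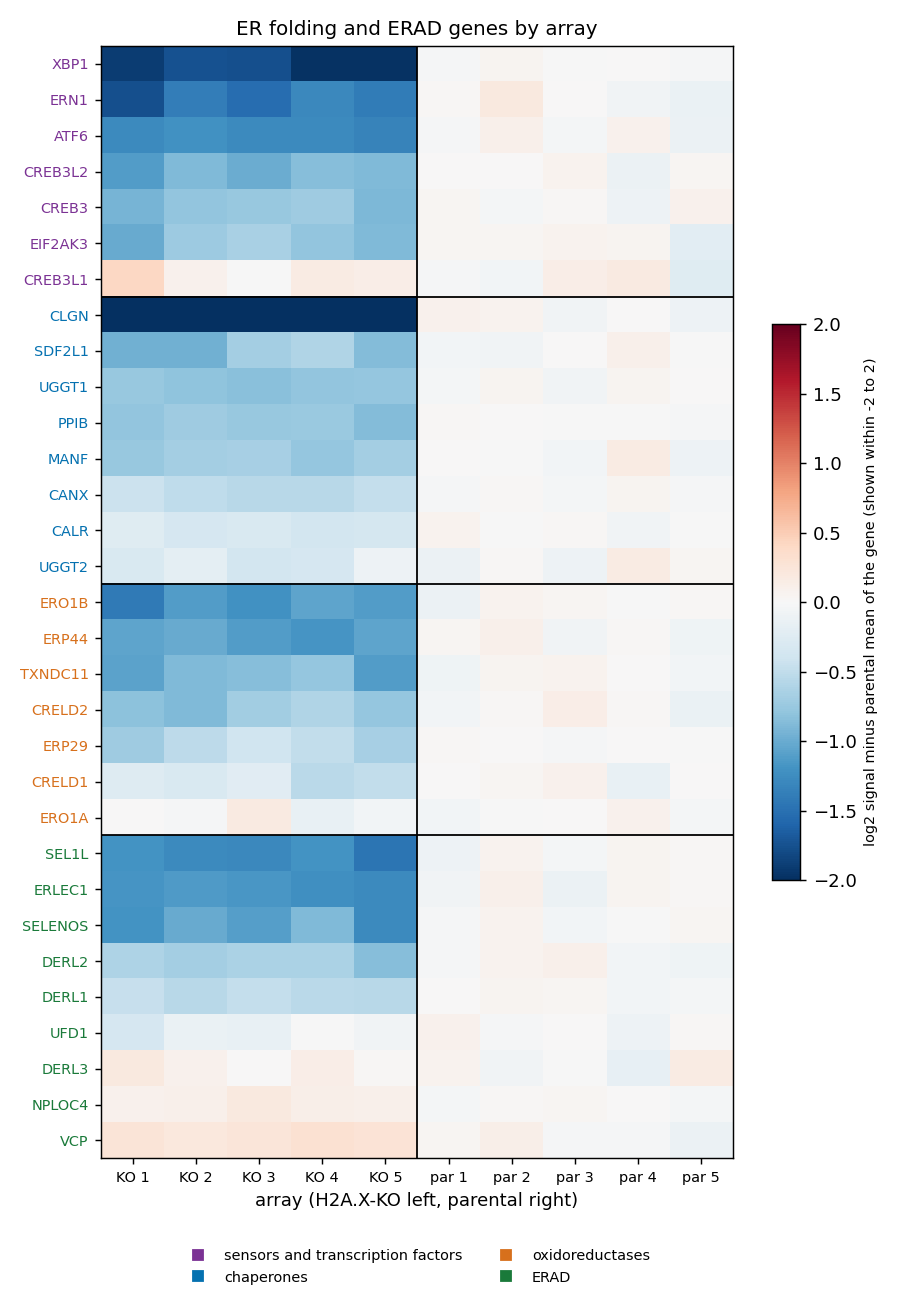
Colour shows the log2 signal of each measured gene (down the page, grouped by class) in each array, less the mean of that gene in parental cells, limited to -2 to 2. The 5 H2A.X-KO arrays on the left are blue for most genes, while CREB3L1, ERO1A, UFD1, DERL3, NPLOC4 and VCP, which did not fall, are pale or red.

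By class, the median difference was -0.94 for sensors and transcription factors, -0.74 for chaperones, -0.75 for oxidoreductases and -0.52 for ERAD genes. All 8 chaperones fell, as did 6 of 7 sensors and transcription factors and 6 of 7 oxidoreductases. ERAD was the mixed class, with 5 of 9 lower, 1 higher and 3 that did not pass. These counts describe chosen genes, and no test between classes was made.

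**Figure D2:**
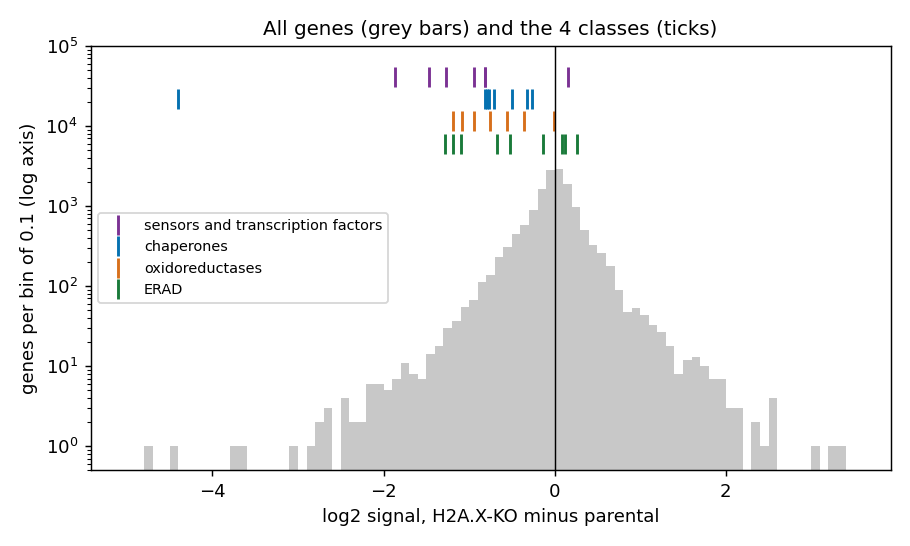
Grey bars count all 14884 genes by their log2 difference, H2A.X-KO minus parental, in bins of 0.1 on a log axis, and coloured ticks mark the 31 genes in 4 rows by class. Most ticks lie left of 0, where CLGN stands alone at -4.40.

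All 3 sensor genes fell. ERN1, which encodes IRE1, read 5.85, 6.23, 6.09, 6.32 and 6.21 (log2 signal) in H2A.X-KO replicates 1 to 5, against 7.63, 7.80, 7.61, 7.54 and 7.47 in parental replicates 1 to 5. Every H2A.X-KO array was thus more than 1 unit below the lowest parental array, and the difference was -1.47 ± 0.09 (SE, limma adjusted p = 5.68e-08). ATF6, whose product is cut in the Golgi to become a transcription factor, read 9.18, 9.24, 9.19, 9.19 and 9.12 in H2A.X-KO cells and 10.44, 10.56, 10.42, 10.55 and 10.34 in parental cells. The H2A.X-KO arrays were closely packed, and ATF6 differed by -1.28 ± 0.06 (SE, limma adjusted p = 4.29e-09), a signal 2.42-fold lower. Its homologue ATF6B, measured outside the list, was at -0.14 and did not pass (limma adjusted p = 0.0659).

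EIF2AK3, which encodes the translation-blocking kinase PERK, fell less than the other sensors. It read 6.53, 6.81, 6.90, 6.75 and 6.65 in H2A.X-KO cells and 7.58, 7.58, 7.61, 7.60 and 7.33 in parental cells. The groups did not overlap although parental replicate 5 was low, and the difference was -0.81 ± 0.08 (SE, limma adjusted p = 3.87e-06). Its 95% interval, -0.99 to -0.64, did not meet that of ERN1, -1.67 to -1.28, or of ATF6, -1.40 to -1.15. That contrast between sensors was not tested.

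XBP1, the transcription factor activated by IRE1, fell the most among the regulators. Its signal was 8.13, 8.28, 8.27, 8.05 and 8.05 in H2A.X-KO cells and 9.99, 10.07, 10.02, 10.02 and 10.01 in parental cells. Replicates differed little within either group, and XBP1 was 3.65-fold lower (-1.87 ± 0.06, SE, limma adjusted p = 2.97e-10), the fall ranked 38 among all 14884 genes. One signal was given for the gene, and spliced and unspliced forms were not told apart.

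The XBP1 promoter is shown because it holds the ER stress response element (ERSE), the paired CCAAT and CCACG site known as the target of ATF6. The 250 bases before the RefSeq start farthest upstream lie at chr22:28800570-28800819 of GRCh38.p14, on the minus strand, and capitals mark the fixed letters of the element.
XBP1: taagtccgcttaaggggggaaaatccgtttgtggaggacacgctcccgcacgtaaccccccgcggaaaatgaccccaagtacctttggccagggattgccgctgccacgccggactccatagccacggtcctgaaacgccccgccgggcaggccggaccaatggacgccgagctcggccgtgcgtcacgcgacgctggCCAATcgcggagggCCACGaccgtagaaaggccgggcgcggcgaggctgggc

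Elements of this kind were searched in the 250 bases before each RefSeq start, on both strands. The ERSE, searched as CCAAT, 9 bases of any kind and CCACG, was present for 5 of the 28 measured genes of the list with a promoter in the table and for 0.0916% of all 27305 genes with one. The related ERSE-II, searched as ATTGG, 1 base of any kind and CCACG, was present for 1 of the 28 and for 0.0659% of all genes. Over the 10749 measured genes with a promoter, the shares were 0.102% for the ERSE and 0.14% for ERSE-II. The list was chosen for known ER functions, so these shares are a description and were not tested. The sites are shown as 30 bases each on the strand of the gene, with fixed letters in capitals. Those of CALR, CRELD2, ERO1B and SDF2L1 read in reverse. On the minus strand of GRCh38.p14 lie the sites of XBP1 at chr22:28800597-28800626 and ERO1B at chr1:236282177-236282206. On the plus strand lie those of CRELD2 at chr22:49918549-49918578, CANX at chr5:179698773-179698802, CALR at chr19:12938379-12938408 and SDF2L1 at chr22:21642105-21642134. CANX has another listed start upstream of its site.
XBP1: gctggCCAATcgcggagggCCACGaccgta
ERO1B: gcccgCGTGGtcccgcctcATTGGccgccg
CRELD2: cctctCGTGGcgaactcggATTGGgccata
CANX: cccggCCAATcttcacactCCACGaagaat
CALR: ccacgCGTGGtcgaccatcATTGGtcggtg
SDF2L1: cctcggaagCGTGGaCCAATcaaaaccctc

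All 6 of these genes fell, with log2 differences between -1.87 for XBP1 and -0.32 for CALR. The 5 genes with an ERSE had a median difference of -0.75, and the 23 without had -0.81. Of 11 measured genes in all with an ERSE, 7 fell and 1 rose, with a median of -0.50. The 7 included the 5 genes of the list. With ERSE-II, 5 of 15 fell and 3 rose, with a median of -0.07. Among all genes 19.0% were lower and 15.3% higher. Besides the ERSE genes of the list, those with an ERSE included SERP1, which encodes a small ER membrane protein (-1.79), and FICD, which encodes the enzyme that modifies the chaperone BiP (-0.64). The remaining ERSE genes were TMEM120A, which rose by 0.26, and SYNPO, TRIM5 and ZNF17, which did not pass. These names came from the search, and printing them was chosen after the values were seen. TGACGTG, the core of the unfolded protein response element, was present for 2.05% of all genes and 1 of the 28, VCP, the only gene of the list that rose. Of 263 measured genes with it, 78 fell and 54 rose, with a median of -0.02. TTGCATCA, the core of the element read by ATF4, was present for 0.967% of all genes and 0 of the 28. Of 82 measured genes with it, 16 fell and 10 rose, with a median of -0.01. ERSE and ERSE-II share CCACG, and ATTGG is CCAAT read on the other strand. A match is a run of letters and shows no binding.

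The other ER-anchored transcription factors are cut and released in the manner of ATF6. CREB3L2 read 6.94, 7.18, 7.05, 7.20 and 7.17 in H2A.X-KO cells and 8.05, 8.07, 8.13, 7.93 and 8.09 in parental cells, and differed by -0.94 ± 0.07 (SE, limma adjusted p = 1.61e-07). CREB3 read 8.17, 8.30, 8.34, 8.38 and 8.20 in H2A.X-KO cells and 9.13, 9.06, 9.12, 8.99 and 9.19 in parental cells, and differed by -0.82 ± 0.06 (SE, adjusted p = 3.36e-07). Both were separated in all arrays. CREB3L1 was at 4.34 to 4.76 in H2A.X-KO arrays and 4.11 to 4.52 in parental arrays. These ranges overlap and lie below the 5.49 of the median gene, and CREB3L1 (0.16, adjusted p = 0.239) did not pass.

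**Figure D3:**
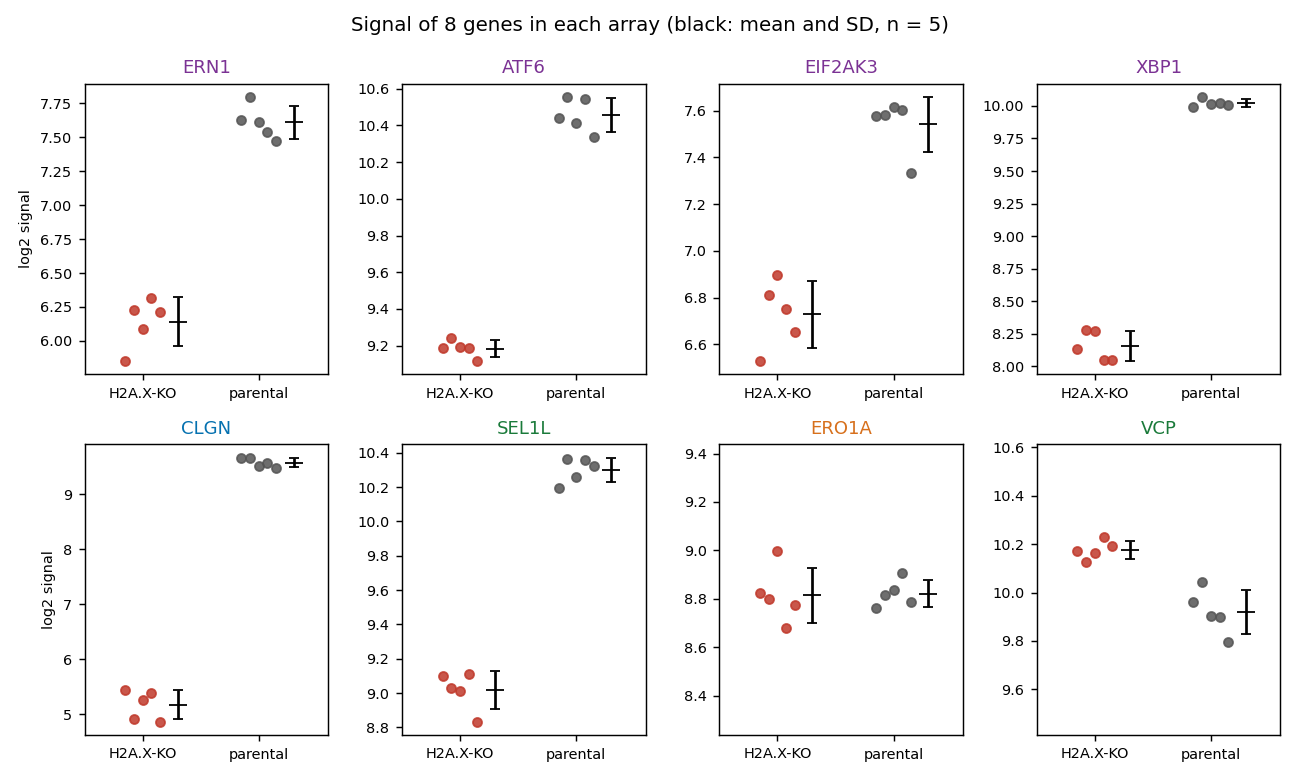
Points are the log2 signals of 8 genes in the 5 H2A.X-KO arrays (left, red) and the 5 parental arrays (right, grey), with mean and SD in black, and each panel has its own vertical scale. ERN1, ATF6, EIF2AK3, XBP1, CLGN and SEL1L are lower in every H2A.X-KO array, ERO1A overlaps, and VCP is higher in every H2A.X-KO array.

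Among the chaperones, CLGN stood far below the rest. CLGN encodes calmegin, a homologue of the lectin chaperone calnexin best known from the testis. It read 5.43, 4.92, 5.26, 5.38 and 4.86 in H2A.X-KO cells and 9.66, 9.65, 9.50, 9.57 and 9.47 in parental cells. The difference of -4.40 ± 0.11 (SE, limma adjusted p = 4.56e-11), 21.1-fold lower in signal, was the fall ranked 2 among all genes. The H2A.X-KO mean of 5.17 was below 5.49, the median over all genes, where differences of signal are compressed, so that fold is uncertain.

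The other genes of the calnexin cycle fell by less. CANX and CALR encode calnexin and calreticulin, the lectins that hold newly made glycoproteins. CANX was at 11.40 to 11.52 in H2A.X-KO arrays, against 11.92 to 12.01 in parental arrays (-0.50, limma adjusted p = 4.09e-06). CALR was at 11.48 to 11.60 and at 11.77 to 11.91 in the same order (-0.32, limma adjusted p = 0.000259), with no overlap for either gene. UGGT1 encodes the enzyme that puts glucose back on misfolded glycoproteins and so returns them to the lectins. Its signal was 9.06, 9.02, 9.00, 9.04 and 9.05 in H2A.X-KO cells and 9.79, 9.89, 9.76, 9.88 and 9.83 in parental cells, tight in both groups and 1.74-fold lower (-0.80 ± 0.05, SE, limma adjusted p = 6.68e-08). UGGT2, its homologue, was at 7.37 to 7.63 in H2A.X-KO arrays and 7.61 to 7.90 in parental arrays. It fell by only 0.26 (limma adjusted p = 0.0127), its ranges overlapped, and it is the fall that a limit of 0.01 would remove.

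Of the genes working with the HSP70 chaperone BiP, SDF2L1 and MANF were measured. SDF2L1, a partner of ER J-domain proteins, read 6.29, 6.29, 6.56, 6.64 and 6.38 in H2A.X-KO cells and 7.20, 7.18, 7.26, 7.35 and 7.24 in parental cells (-0.81 ± 0.08, SE, limma adjusted p = 2.75e-06). MANF, a small ER protein that binds BiP, read 5.84, 5.92, 5.93, 5.82 and 5.92 in H2A.X-KO cells and 6.61, 6.60, 6.54, 6.75 and 6.49 in parental cells (-0.71 ± 0.06, SE, limma adjusted p = 1.01e-06). For both genes the highest H2A.X-KO array was under the lowest parental array by more than 0.5. PPIB, which encodes the proline isomerase cyclophilin B, read 11.28, 11.36, 11.31, 11.33 and 11.21 in H2A.X-KO cells and 12.10, 12.08, 12.06, 12.07 and 12.05 in parental cells. The parental values spanned 0.05 in all, and PPIB was 1.71-fold lower (-0.77 ± 0.05, SE, limma adjusted p = 8.60e-08).

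The measured oxidoreductases of the PDI family and its partners fell, with a single exception. Of 10 listed genes of the PDI family itself, only 3 were measured. ERP44, which retains ER proteins as they pass to the Golgi, read 9.05, 9.09, 8.98, 8.92 and 9.05 in H2A.X-KO cells and 10.14, 10.20, 10.03, 10.12 and 10.02 in parental cells (-1.09 ± 0.06, SE, limma adjusted p = 1.62e-08). TXNDC11, a membrane protein with thioredoxin domains, read 7.46, 7.66, 7.69, 7.76 and 7.43 in H2A.X-KO cells and 8.46, 8.60, 8.61, 8.54 and 8.48 in parental cells (-0.94 ± 0.07, SE, limma adjusted p = 4.95e-07). Neither gene had an H2A.X-KO array near the parental range. ERP29, a PDI relative that acts as a chaperone, read 6.57, 6.76, 6.89, 6.79 and 6.63 in H2A.X-KO cells and 7.31, 7.29, 7.27, 7.29 and 7.28 in parental cells (-0.56 ± 0.06, SE, limma adjusted p = 1.59e-05). CRELD2, a secreted protein induced by ER stress, read 6.11, 6.06, 6.25, 6.33 and 6.16 in H2A.X-KO cells and 6.89, 6.95, 7.07, 6.96 and 6.80 in parental cells (-0.75 ± 0.07, SE, limma adjusted p = 2.21e-06). Both were separated in all arrays, as was CRELD1, at 5.66 to 5.98 in H2A.X-KO arrays and 6.06 to 6.29 in parental arrays (-0.36, limma adjusted p = 0.00186).

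The 2 ERO1 oxidases, which pass electrons from PDI to oxygen, parted. ERO1B read 5.25, 5.54, 5.45, 5.60 and 5.54 in H2A.X-KO cells and 6.53, 6.73, 6.69, 6.65 and 6.68 in parental cells, 2.27-fold lower (-1.18 ± 0.07, SE, limma adjusted p = 5.05e-08). Its H2A.X-KO mean of 5.47 was just below the 5.49 of the median gene. ERO1A read 8.82, 8.80, 9.00, 8.68 and 8.77 in H2A.X-KO cells and 8.76, 8.81, 8.83, 8.91 and 8.79 in parental cells. The parental range lay inside the H2A.X-KO range, and ERO1A differed by -0.01 with a 95% interval of -0.15 to 0.13 (limma adjusted p = 0.954).

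Homologues are set side by side here as a description, and no p-value is given, since these pairs were chosen after the values were seen. The log2 difference between both genes was taken within each array. ERO1B less ERO1A was -3.58 to -3.08 in H2A.X-KO arrays and -2.25 to -2.09 in parental arrays. CLGN less CANX was -6.62 to -6.03 in H2A.X-KO arrays and -2.47 to -2.27 in parental arrays. UGGT1 less UGGT2 was 1.42 to 1.65 in H2A.X-KO arrays and 1.97 to 2.18 in parental arrays. In each of these 3 pairs the first gene had the more negative difference, and the ranges of the 2 groups did not overlap. CREB3L2 less CREB3L1 was 2.18 to 2.74 in H2A.X-KO arrays and 3.41 to 3.97 in parental arrays. DERL2 less DERL3 was 2.90 to 3.14 in H2A.X-KO arrays and 3.51 to 3.91 in parental arrays. CRELD2 less CRELD1 was 0.15 to 0.68 in H2A.X-KO arrays and 0.59 to 0.91 in parental arrays, and these ranges overlapped. Some homologues were close to each other, as CREB3L2 at -0.94 and CREB3 at -0.82, and DERL2 at -0.68 and DERL1 at -0.52. Their further homologues CREB3L1, at 0.16, and DERL3, at 0.09, did not pass. A change of such a ratio shows unequal change of both genes and does not show that either was constant.

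**Figure D4:**
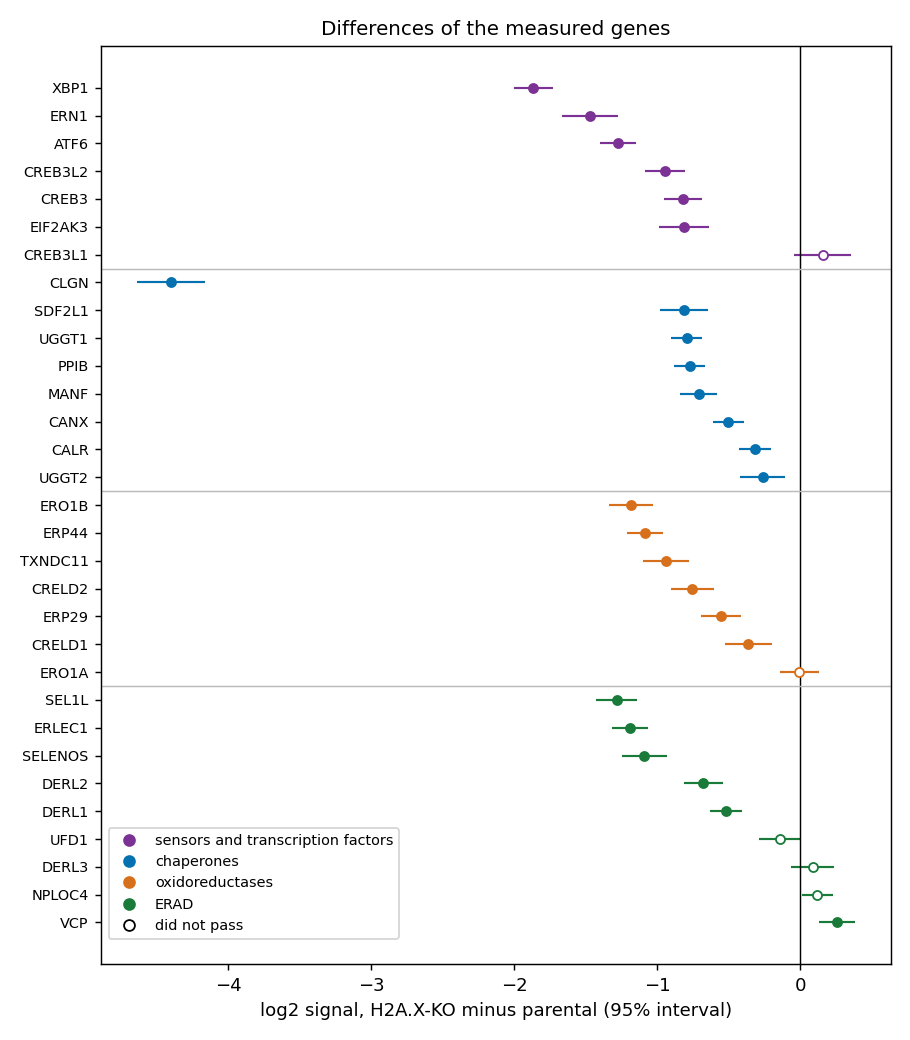
Points are the log2 differences, H2A.X-KO minus parental, of the 31 genes with 95% intervals, grouped by class and ordered by size, and open points did not pass. XBP1, ERN1 and ATF6 lead the regulators, CLGN lies far to the left at -4.40, and VCP is the only filled point right of 0.

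Of 5 measured genes of the SEL1L-HRD1 complex at the ER membrane, 4 fell and DERL3 did not pass. SEL1L, the adaptor of the HRD1 ligase, read 9.10, 9.03, 9.01, 9.11 and 8.83 in H2A.X-KO cells and 10.20, 10.37, 10.26, 10.36 and 10.32 in parental cells (-1.28 ± 0.07, SE, limma adjusted p = 1.06e-08). ERLEC1, a lectin that hands glycoproteins to that complex, read 8.64, 8.68, 8.66, 8.60 and 8.55 in H2A.X-KO cells and 9.75, 9.93, 9.71, 9.87 and 9.84 in parental cells (-1.19 ± 0.06, SE, limma adjusted p = 7.53e-09). SELENOS, a selenoprotein that anchors VCP at the membrane, read 5.51, 5.70, 5.60, 5.81 and 5.42 in H2A.X-KO cells and 6.67, 6.76, 6.64, 6.68 and 6.73 in parental cells (-1.09 ± 0.07, SE, limma adjusted p = 1.34e-07). For each of these 3 genes, signal was at least 2-fold lower and the groups were far apart.

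Of the derlins, membrane proteins of the exit channel, DERL1 and DERL2 fell by less. DERL2 read 8.62, 8.55, 8.61, 8.60 and 8.39 in H2A.X-KO cells and 9.21, 9.29, 9.34, 9.18 and 9.14 in parental cells (-0.68 ± 0.06, SE, limma adjusted p = 2.62e-06). DERL1 read 9.85, 9.76, 9.84, 9.78 and 9.76 in H2A.X-KO cells and 10.32, 10.37, 10.36, 10.26 and 10.27 in parental cells (-0.52 ± 0.05, SE, limma adjusted p = 3.56e-06). Both were lower in all 5 H2A.X-KO arrays. DERL3 was at 5.47 to 5.65 in H2A.X-KO arrays and 5.30 to 5.63 in parental arrays, near the 5.49 of the median gene, and did not pass (0.09, adjusted p = 0.386).

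In the cytosolic VCP complex, which pulls substrates out of the membrane, 1 of 3 genes rose and 2 did not pass. VCP read 10.17, 10.13, 10.16, 10.23 and 10.19 in H2A.X-KO cells and 9.96, 10.05, 9.90, 9.90 and 9.80 in parental cells. All H2A.X-KO arrays were above all parental arrays, and VCP was 1.19-fold higher (0.26 ± 0.06, SE, limma adjusted p = 0.00311). Of its cofactors, NPLOC4 was at 9.47 to 9.58 in H2A.X-KO arrays and 9.34 to 9.43 in parental arrays, separated but short of the threshold (0.12, adjusted p = 0.0829). NPLOC4 passed with an intensity trend (adjusted p = 0.0137), under quantile normalization (0.16, adjusted p = 0.0207) and without dim genes (adjusted p = 0.0297). UFD1 overlapped, at 6.27 to 6.60 in H2A.X-KO arrays and 6.51 to 6.70 in parental arrays, and did not pass (-0.14, adjusted p = 0.138).

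Values of chromosomal neighbours were set beside each gene. For each gene the median difference of the 20 nearest measured genes, 10 on either side in RefSeq order, was computed, and the 5th and 95th percentiles of that median over all genes were -0.11 and 0.11. Around ERN1 on chromosome 17 it was 0.16, with 8 neighbours higher and 2 lower, so ERN1 fell among genes that were mostly higher or did not pass. Around NPLOC4, also on chromosome 17, it was 0.16, with 7 neighbours higher and 0 lower, which is above the 0.12 of NPLOC4 itself. The other 29 genes had neighbour medians between -0.11 and 0.08. With neighbour medians subtracted, the median over the 31 genes was -0.78.

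**Figure D5:**
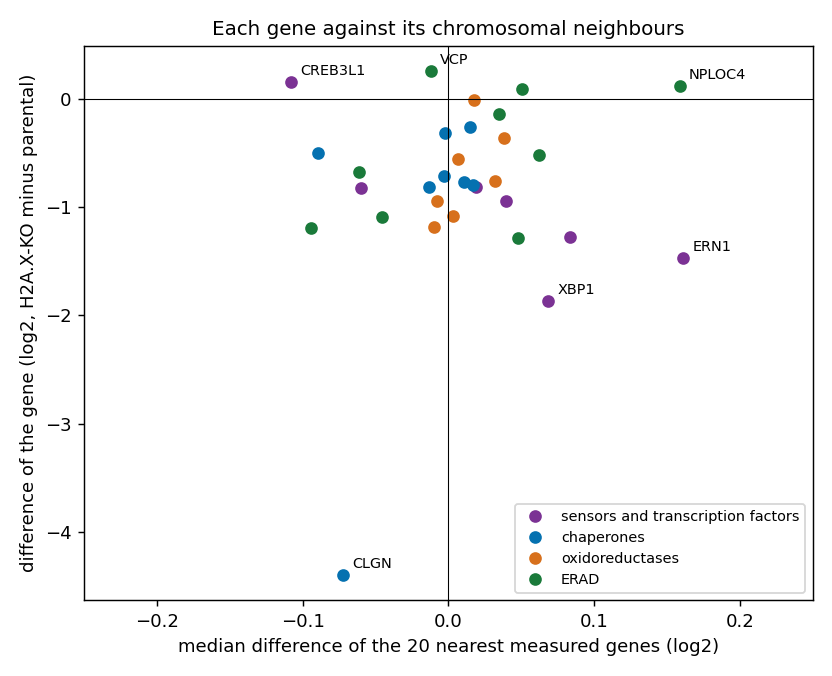
Each point is a gene of the list, with its own log2 difference on the vertical axis and the median difference of its 20 nearest measured genes on the horizontal axis, H2A.X-KO minus parental. The points spread down the page but little across it, and ERN1 and NPLOC4, both at 0.16, lie farthest right.

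Other genes of the same pathways were counted from written lists, to be read beside the 19.0% of all genes that were lower and the 15.3% that were higher. Of 24 further ER folding genes, 13 fell and 4 rose, with a median of -0.29. HYOU1, an HSP70-like nucleotide exchange factor for BiP, differed by -2.64, PPIC, a proline isomerase, by -1.08, the peroxidase gene GPX8 by -1.02 and the sulfhydryl oxidase gene QSOX1 by -0.95. The neighbours of HYOU1 were lower too, with a median of -0.29, below the 5th percentile of -0.11 over all genes. Their part in the value of HYOU1 was not tested. FKBP7, another proline isomerase, rose by 0.77. Of 30 further ERAD genes, 13 fell and 5 rose, the rises at about the share over all genes, with a median of -0.13. The largest falls were those of the translocon subunit gene SEC61B (-0.96), SELENOK (-0.93), the ligase gene RNF185 (-0.79) and the deglycosylase gene NGLY1 (-0.56). Among others at the ER membrane FAF2 (-0.46), HERPUD2 (-0.42), UBXN4 (-0.38) and HM13 (-0.17) fell. The 5 rises of this list were those of TMUB2 (0.39), FOXRED2 (0.36), BCAP31 (0.28), UBXN8 (0.24) and TMEM33 (0.15). TMEM129, RNF139, AUP1, ERLIN1 and ERLIN2 were among those that did not pass.

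Of 9 measured genes listed as output of PERK and ATF4, 8 fell and 1, ATF5, rose, with a median of -1.55. Whether PERK had a part in these differences was not tested. The stress transcription factor genes DDIT3 (CHOP) and ATF3 differed by -2.64 and -1.80, the pseudokinase gene TRIB3 by -2.35 and the asparagine synthetase gene ASNS by -1.94. The H2A.X-KO means of DDIT3 (4.46) and ATF3 (4.14) were below 5.49, the median over all genes, so the sizes of their differences are uncertain. The rise of ATF5 (0.21, limma adjusted p = 0.0453) was lost without H2A.X-KO replicate 1, 2 or 4 or parental replicate 2, 3, 4 or 5. Of 16 further genes of sensing, sensor processing and ER-linked death, 6 fell and 3 rose, with a median of -0.14. UFM1, a ubiquitin-like modifier, differed by -0.88, WFS1, an ER membrane protein gene, by -0.82, and RTCB, the ligase that joins spliced XBP1 mRNA, by -0.58. MAP3K5, a kinase gene that acts downstream of IRE1, rose by 0.80.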

How the data were processed

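RNA was measured in 5 H2A.X-KO and 5 parental samples of MCF10A on 10 arrays. Each probe set has 1 deposited log2 value per array. The tools named per the submitters' processing notes are Partek 6.6 and Affymetrix Expression Console. How the authors summarised, normalized or filtered the log2 values was not given in the sources used here. Of 53617 probe sets, 16098 had 1 gene symbol, all matched by identifier to RefSeq (GRCh38.p14), 0 had several and 37519 had none here. The brightest probe set stood for each of 14884 genes.

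Differences are H2A.X-KO minus parental, fitted in limma 3.58.1 (lmFit, then eBayes; R 4.3.3) with no covariate and no filter. The 14884 two-sided p-values were adjusted together by Benjamini-Hochberg. The median standard error of a difference was 0.08, and the number of arrays limits the precision. Simulated data with 200 changed genes of 14884 gave back 83% of those changed by 0.5 and 100% of those changed by 1 (log2), with 12 unchanged genes called. Noise was drawn independently for each gene, and fewer genes were changed than the 5108 that passed in the real data. These values therefore do not give the recovery or the false calls of the real comparison.

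Members, classes and lists were chosen with earlier results of these data known. All measured members are named. Values by array are given for ERN1, ATF6, EIF2AK3, XBP1 and SEL1L and, in each class, for up to 5 more that passed with separated arrays, by size of difference. ERO1A was added after its values were seen. From further lists, up to 4 genes that passed with the largest differences are named. FKBP7, ATF6B and the ER-membrane ERAD genes BCAP31, TMEM33, UBXN8, TMEM129, RNF139, AUP1, ERLIN1 and ERLIN2 were added after their values were seen. So were FAF2, HERPUD2, UBXN4, HM13, TMUB2 and FOXRED2. The targeted gene was not analysed here, so the groups rest on the labels. Promoters are RefSeq sequences of GRCh38.p14. Alternatives were another normalization, variance model, probe-set rule, threshold and filter on dim genes, the replicate block and each array left out. Homologous pairs and the subtraction of neighbour medians were chosen after seeing the data.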

Additional observations from a re-analysis of the deposited data

Results flagged for a closer look

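In 62 groups of 5 arrays, 3 had an array far from the others of its group, where chance gives about 1 in 20. EIF2AK3 in parental replicate 5 was at 7.33, with the next parental array at 7.58. DERL2 in H2A.X-KO replicate 5 was at 8.39, with the next at 8.55. NPLOC4 in H2A.X-KO replicate 3 was at 9.58, with the next at 9.50.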

How the results depend on the processing

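Leaving out any 1 array kept the count of the 31 genes at 26 passed, 25 lower and 1 higher, as did centring, array weights, robust variance, the mean of probe sets and the replicate block. Quantile normalization, an intensity trend and leaving out dim genes gave 27, with NPLOC4 the added rise. At an adjusted p under 0.01 there were 25. A limit of a 2-fold change left 418 of all genes, 9 of the 31, 3 sensors and transcription factors, 1 chaperone, 2 oxidoreductases, 3 ERAD genes, 3 further ER folding genes, 0 further ERAD genes and 0 further sensing genes, where limma alone passed 18 and 9. Leaving out 1 array gave 4705 to 5128 of all genes.

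ERO1A took the opposite sign under quantile normalization (0.0341) and, without single arrays, ranged between -0.052 and 0.0268, never past the threshold. Without dim genes the median of sensors and transcription factors was -1.11, because CREB3L1 was not tested there. With neighbour medians subtracted, a choice made after seeing the data, the ERAD median was -0.58.

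Same-numbered samples of both groups had correlations of deviations from -0.01 to 0.20, and the labels do not say that numbers pair them. With the replicate block 4972 of all genes passed, against 5108 without it, and 15 further ERAD genes (11 lower, 4 higher), against 18. The block also ended the call of ATF5, leaving 8 of 9 genes listed as output of PERK and ATF4, all lower. It changed no count of the 31 genes, the further folding genes or the further sensing genes. Signals near or below the median of all gene means limit what a small or large difference there shows. Among them were CLGN, ERO1B, DDIT3, ATF3 and SELENOK in H2A.X-KO cells, and CREB3L1 and DERL3 in both groups.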
